A study of Mus musculus with 6 samples.

Results

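The genes described here are the 8 interferon regulatory factor (IRF) genes *Irf1*, *Irf2*, *Irf3*, *Irf4*, *Irf5*, *Irf7*, *Irf8* and *Irf9*, chosen by gene name from the 29097 genes listed in the expression table of peripheral blood (PB) neutrophils. All 8 passed the filter of a mean of at least 1 FPKM (fragments scaled to gene length and library total) and belong to the 10440 genes tested. The libraries came from C57BL/6 wild type male mice of 8 weeks, either kept for 14 d with silk ligatures on their molars (ligature-induced periodontitis, LIP, named Lig in the sample labels) or left without ligatures (Ctrl). CD45+CD11b+Ly6G+ cells were sorted from blood after red cell lysis, and each of the 3 libraries per group was made by Smart-seq2 from the neutrophils of 5 mice pooled. A value is therefore a mean over 5 mice, and p-values measure the spread between pools and not between single mice. The comparison asks which IRF genes differ in blood neutrophils during periodontitis, a setting that the study links to type I interferon.

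IRFs are transcription factors that share a DNA-binding domain and recognise GAAA repeats. *Irf3* and *Irf7*, once phosphorylated by kinases downstream of nucleic acid sensors and Toll-like receptors, switch on type I interferon genes. *Irf9* is part of ISGF3, the complex that carries the signal of the type I interferon receptor to response elements. *Irf1* is induced by interferon gamma, and *Irf2* occupies many of the same sites and can oppose it. *Irf5* drives inflammatory cytokine genes, and *Irf4* and *Irf8* are partners of Ets factors such as PU.1 in lymphocytes and myeloid cells, *Irf8* being known to hold back granulocyte formation.

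In the deposited GRCm38 coordinates, *Irf1* lies at chr11:53770014-53777323 on the plus strand, *Irf7* at chr7:141262706-141266481 on the minus strand, *Irf9* at chr14:55603571-55610030 on the plus strand and *Irf8* at chr8:120736358-120756694 on the plus strand. The other members are *Irf2* at chr8:46739732-46847458, *Irf3* at chr7:44997648-45002848, *Irf4* at chr13:30749226-30766976 and *Irf5* at chr6:29526625-29541871, all on the plus strand. Promoter windows of 300 bases, from 250 before to 50 after a RefSeq start site (GRCm38.p6), were found for all 8 members, 11 windows in all. The stretches before the start of 3 genes called between the groups are shown because they hold, or lack, the letters of a STAT dimer site. They are *Irf1* at chr11:53769764-53770013 on the plus strand, *Irf8* at chr8:120736108-120736357 on the plus strand, and *Irf7* at chr7:141266482-141266674 on the minus strand. Each is written 5′ to 3′ with matches to that site, TTCNNNGAA, in capitals.

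Irf1: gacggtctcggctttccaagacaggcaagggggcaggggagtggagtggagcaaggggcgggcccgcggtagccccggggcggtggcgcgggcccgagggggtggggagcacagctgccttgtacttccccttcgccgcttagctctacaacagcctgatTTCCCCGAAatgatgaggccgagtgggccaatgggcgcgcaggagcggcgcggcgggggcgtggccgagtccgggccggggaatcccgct

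Irf8: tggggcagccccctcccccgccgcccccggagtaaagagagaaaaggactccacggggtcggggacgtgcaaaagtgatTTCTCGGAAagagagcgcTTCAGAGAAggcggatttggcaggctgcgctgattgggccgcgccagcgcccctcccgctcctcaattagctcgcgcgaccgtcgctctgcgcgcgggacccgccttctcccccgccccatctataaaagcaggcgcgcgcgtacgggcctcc

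Irf7: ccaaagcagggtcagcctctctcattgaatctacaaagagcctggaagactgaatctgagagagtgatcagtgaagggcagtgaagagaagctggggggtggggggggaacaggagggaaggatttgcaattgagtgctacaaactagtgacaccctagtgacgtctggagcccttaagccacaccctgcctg

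The *Irf1* stretch holds 1 STAT dimer site, which begins at base -90 from the RefSeq start. The *Irf8* stretch holds 2, at bases -171 and -153. No match to any of the 4 motifs searched was found in the windows of *Irf3*, *Irf4*, *Irf5*, *Irf7* and *Irf9*. The *Irf9* windows begin at 55603735 and 55604329, inside the gene by its deposited coordinates. For *Irf9*, no bases before the deposited start were therefore searched. *Irf2* was the only member with a response element match, GAAANNGAA, at base -241, which overlaps 2 matches to the IRF core AANNGAAA and 1 to the Ets-IRF composite GGAANNGAA, and it also holds a STAT dimer site at base -224. These *Irf2* sites are shown in capitals with the bases around them, and the 2 contexts overlap.

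Irf2 response element: tggggaagtGAAAATGAAattgactttt

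Irf2 STAT dimer site: aaattgacttTTCCGAGAAatgatgaaag

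Both strands were searched. Among 32851 promoter windows of the same length, 8.30% hold TTCNNNGAA, 8.56% hold GAAANNGAA, 23.9% hold AANNGAAA and 8.24% hold GGAANNGAA. A match is a description of the letters, and a window without a match says nothing about the factor.

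*Irf1*, *Irf7* and *Irf9* were each a little over 2-fold higher in LIP libraries and *Irf8* was 2.23-fold lower, by edgeR's quasi-likelihood test with TMM scaling and Benjamini-Hochberg adjustment over all 10440 genes, which is used for every adjusted p here. Levels per library are given as CPM, counts scaled by library size and TMM factor. *Irf1*, *Irf7* and *Irf9* turned lower when libraries were scaled on neutrophil markers instead, as described below. *Irf2*, *Irf3*, *Irf4* and *Irf5* did not pass an adjusted p of 0.05. Thus 3 of 8 members were higher and 1 was lower, where 26.5% of all genes tested were called higher and 27.2% lower. The median log2 fold change was 0.19 over the members and -0.09 over all genes tested.

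**Figure D1:**
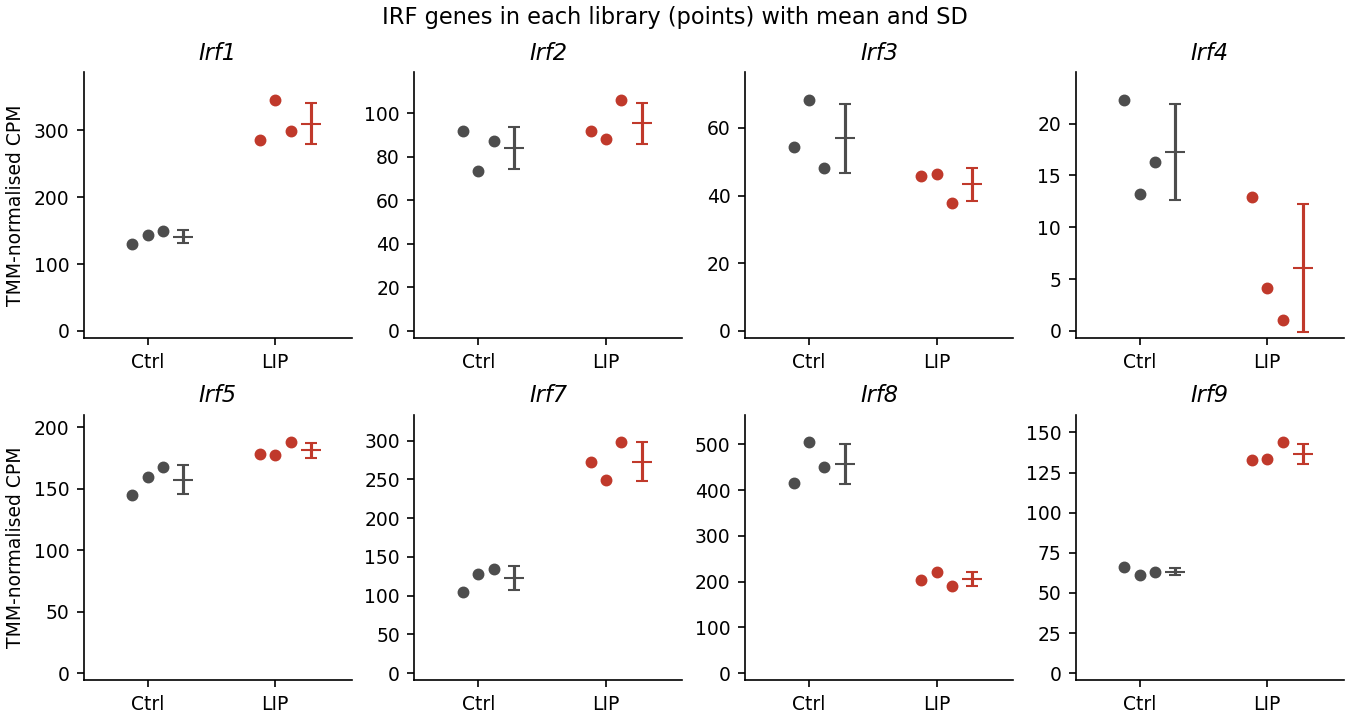
TMM-normalised read counts (CPM, counts scaled by library size and TMM factor, y axis) of the 8 IRF genes in each of 3 Ctrl and 3 LIP libraries (points), with the mean and SD beside them. *Irf1*, *Irf7* and *Irf9* sit higher in every LIP library and *Irf8* lower on this scale, while the *Irf4* points of LIP spread from 1.04 to 12.96 CPM.

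*Irf1*, whose product drives antigen presentation and guanylate-binding protein genes, measured 130.4, 143 and 149 CPM in the Ctrl libraries and 285, 345 and 299 CPM in the LIP libraries. The lowest LIP library lay well above the highest Ctrl library. The fitted log2 fold change was 1.14 (SE 0.113, 95% interval 0.89 to 1.39, adjusted p = 1.54e-05), a 2.20-fold higher level.

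*Irf7*, the amplifier of type I interferon production, measured 105, 128 and 135 CPM in Ctrl and 273, 249 and 298 CPM in LIP. The groups did not overlap, and the log2 fold change of 1.16 (SE 0.126, 95% interval 0.88 to 1.44, adjusted p = 3.00e-05) corresponds to a 2.23-fold higher level. *Irf9*, the DNA-binding subunit of ISGF3, measured 66.0, 61.1 and 63.0 CPM in Ctrl and 133, 133 and 144 CPM in LIP. Its log2 fold change was 1.11 (SE 0.111, 95% interval 0.86 to 1.36, adjusted p = 1.60e-05), a 2.16-fold higher level.

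The 3 members that rose did so by nearly the same amount, and their 95% intervals overlap almost entirely. Differences between these fold changes were not tested. Among all genes tested, the changes of *Irf1*, *Irf7* and *Irf9* stood at the 86.9, 87.4 and 86.3 percentiles.

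*Irf8*, a lineage factor of B cells, monocytes and dendritic cells, moved the other way. It measured 417, 505 and 450 CPM in Ctrl and 204, 221 and 191 CPM in LIP, so that every LIP library lay below every Ctrl library. The log2 fold change was -1.15 (SE 0.109, 95% interval -1.40 to -0.91, adjusted p = 1.07e-05).

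*Irf4*, which directs plasma cell and activated T cell programs, had the lowest level of the family and the widest spread relative to its mean. Its 1341, 792 and 952 reads in Ctrl gave 22.3, 13.2 and 16.3 CPM, and its 651, 213 and 49 reads in LIP gave 12.96, 4.18 and 1.04 CPM. The highest LIP library came close to the lowest Ctrl library, and relative to their mean the LIP values differed among themselves more than those of any other member. The log2 fold change of -1.51 (SE 0.665, 95% interval -2.98 to -0.04) had an adjusted p of 0.0775. Without the LIP library of 651 reads (replicate 1), it was -2.72 with an adjusted p of 0.00145. With all libraries kept, *Irf4* was called lower in 5 of 9 other settings of scaling, filter or model. Whether *Irf4* is called thus depends both on that library and on the processing.

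*Irf3*, the constitutive partner of *Irf7*, measured 54.3, 68.3 and 48.2 CPM in Ctrl and 45.8, 46.4 and 37.7 CPM in LIP. The groups were apart by a small gap, and the log2 fold change of -0.39 (SE 0.167, 95% interval -0.76 to -0.02) had an adjusted p of 0.0683. Without Ctrl replicate 2, which held its highest value, it was -0.22. *Irf5* measured 145, 159.5 and 168 CPM in Ctrl and 178, 178 and 188 CPM in LIP. Here too the groups were apart on the CPM scale, with a log2 fold change of 0.20 (SE 0.105, 95% interval -0.03 to 0.44, adjusted p = 0.128).

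*Irf2*, the counterpart of *Irf1*, measured 91.9, 73.4 and 87.1 CPM in Ctrl and 91.9, 88.0 and 106 CPM in LIP. Its groups overlapped, and its log2 fold change was 0.18 (SE 0.134, 95% interval -0.12 to 0.48, adjusted p = 0.275). On this scale groups did not overlap for 7 of 8 members, against 63.4% of all genes tested, whereas in FPKM *Irf5* overlapped too (52.3 to 59.5 in Ctrl and 50.8 to 54.0 in LIP).

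The libraries held different shares of other transcripts, which bears on every change given above. Totals were alike, between 52186555 and 57262379 reads, but the TMM factors were 1.10 to 1.13 in Ctrl and 0.889 to 0.905 in LIP. All 20 mature neutrophil markers were higher in LIP (median log2 fold change 1.87), and their summed level was 17160 to 20680 FPKM in Ctrl and 55820 to 60790 FPKM in LIP, led by *S100a9*. All 14 B cell markers (median -2.56), all 16 T cell markers (-2.48) and all 10 erythroid markers tested (-2.96) were lower in LIP, on the log2 scale. The erythroid sum, led by *Hba-a1*, was 180800 to 187100 FPKM in Ctrl and 19510 to 20220 FPKM in LIP, where *Klf1* was listed at 0.

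All 11 monocyte markers (median 1.06, led by *Nr4a1*) and all 7 platelet markers (median 1.24, led by *Ppbp*) were higher in LIP. Of 8 NK cell markers, led by *Gzma*, 3 were higher (median 0.30). Of 10 dendritic cell markers only 2 passed the filter, *Cd209a* at 1.49 and *Tcf4* at -1.64 on the log2 scale. In such bulk samples, fewer cells of a type and less RNA per cell cannot be told apart, and the part of these cells in the IRF differences was not tested beyond the values given here.

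How the libraries are scaled therefore sets the zero point. With library totals the median of all genes moved by -0.32 on the log2 scale, and the members' log2 fold changes became 0.82 for *Irf1*, 0.84 for *Irf7*, 0.79 for *Irf9* and -1.47 for *Irf8*. On this scale 3 members were higher and 3 lower, since *Irf3* (-0.71, adjusted p = 0.00415) and *Irf4* (-1.84, adjusted p = 0.0395) passed the threshold, while *Irf2* (-0.14) and *Irf5* (-0.12) changed sign without a call. With scaling on the 20 neutrophil markers the median of all genes moved by -1.80, to -1.89, so most genes had a negative log2 fold change. All 8 members were then called lower, among them *Irf1* at -0.66, *Irf7* at -0.64 and *Irf9* at -0.69. The shares of all genes called under these other scalings were not counted, so the members' counts have no background beside them. A change of scaling shifts every gene and the median of all genes by nearly the same amount. Relative to that median, the differences of all 8 members were therefore, by construction, the same under the 3 scalings to within 0.01. They were 1.23 for *Irf1*, 1.25 for *Irf7*, 1.20 for *Irf9*, -1.06 for *Irf8*, -0.30 for *Irf3* and 0.30 for *Irf5* with TMM.

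**Figure D2:**
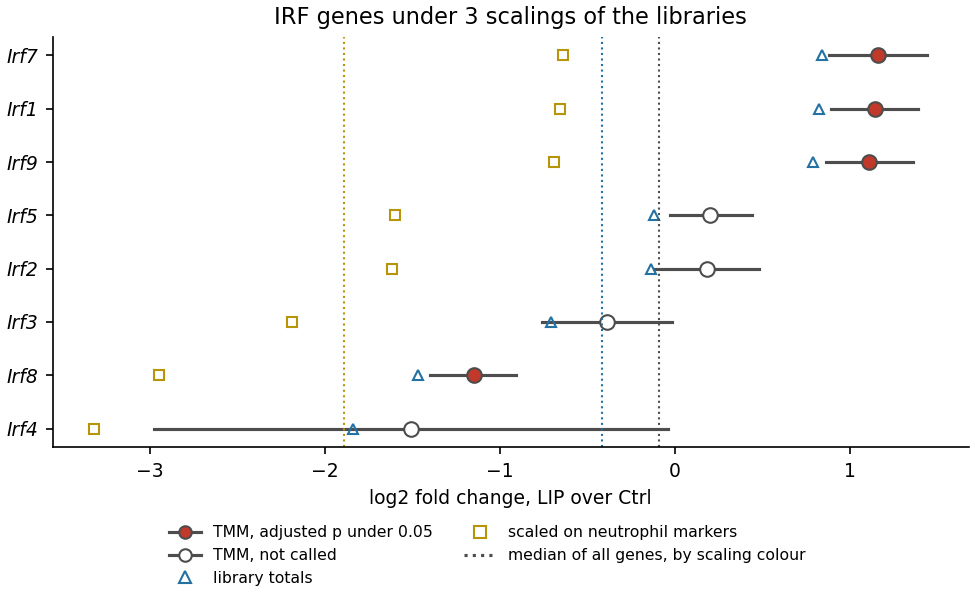
Log2 fold change of LIP over Ctrl (x axis) of each IRF gene with TMM scaling (circles, red where the adjusted p is under 0.05, with 95% intervals), library totals (triangles) and scaling on 20 neutrophil markers (squares). Dotted lines mark the median of all genes tested under each scaling, -0.09, -0.42 and -1.89. A scaling shifts genes and line together, so *Irf1*, *Irf7* and *Irf9* lie right of that line under all 3 scalings, though left of 0 under the last.

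Because FPKM is per length, the levels of the genes can be ranked within a group. In Ctrl, *Irf8* had the highest mean level (66.7 FPKM), followed by *Irf5* (55.8), *Irf1* (36.5), *Irf7* (33.4), *Irf3* (17.0), *Irf9* (12.1), *Irf2* (11.7) and *Irf4* (3.64). *Irf1* and *Irf7* overlapped between libraries, as did *Irf9* and *Irf2*, so their order is not beyond the spread. In LIP, *Irf1* (64.9 FPKM) and *Irf7* (60.2) stood at the top and overlapped, ahead of *Irf5* (52.0), *Irf8* (24.2), *Irf9* (21.2), *Irf2* (10.7), *Irf3* (10.5) and *Irf4* (1.02). *Irf2* and *Irf3* overlapped there, and the mean of *Irf3* lay below those of *Irf9* and *Irf2*, which it had exceeded in Ctrl.

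The summed level of the 8 genes was 237 ± 10.4 FPKM in Ctrl and 245 ± 5.93 FPKM in LIP (SD, n = 3), and its make-up differed. *Irf8* made up 28.1 ± 1.48% of the sum in Ctrl and 9.91 ± 0.771% in LIP. *Irf1* went from 15.4 ± 0.496% to 26.5 ± 2.43% and *Irf7* from 14.1 ± 1.08% to 24.6 ± 2.16%. *Irf9* went from 5.13 ± 0.512% to 8.64 ± 0.302%. *Irf5* held 23.6 ± 0.880% and 21.2 ± 0.539%. A share within a library does not depend on the scaling between libraries. The shares of a library add up to the whole, however, so a lower share of 1 member raises those of the others. They also carry the differences in cell type markers given above.

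**Figure D3:**
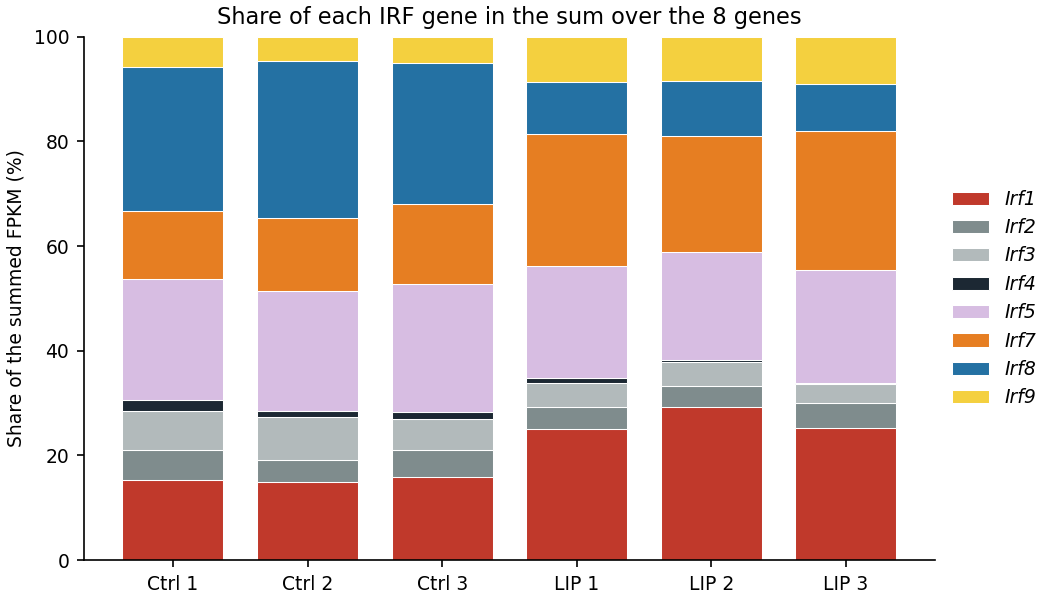
Share of each IRF gene in the summed FPKM of the 8 genes (y axis, %) in each library. The *Irf8* band is 27.1 to 29.8% of the bar in Ctrl and 9.07 to 10.6% in LIP, and the *Irf1* and *Irf7* bands are wider in every LIP library.

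Ratios between the members of 3 pairs were taken within each library, which also leaves out the scaling. The ratio of *Irf1* to its counterpart *Irf2* was 2.64, 3.63 and 3.19 in Ctrl and 5.78, 7.30 and 5.24 in LIP, a difference in mean log2 ratio of 0.95. The ratio of the inducible *Irf7* to the constitutive *Irf3* was 1.77, 1.71 and 2.55 in Ctrl and 5.43, 4.89 and 7.22 in LIP, a difference of 1.55. The ratio of *Irf8* to *Irf5* was 1.19, 1.30 and 1.10 in Ctrl and 0.472, 0.513 and 0.418 in LIP, a difference of -1.36. For all 3 ratios the groups were fully apart, *Irf8* exceeding *Irf5* in every Ctrl library and falling below it in every LIP library. Each ratio sets a member called between the groups against a member not called, so it largely restates the calls. Groups were also apart for 63.4% of all single genes tested, and ratios of other gene pairs were not counted. The ratios, like the shares, carry the differences in cell type markers given above. The two-sided exact permutation test gave p = 0.1 for each (adjusted over the 3 ratios 0.1), which is the smallest p that 3 libraries against 3 allow, so no ratio could pass 0.05.

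*Irf4* and *Irf8* are expressed in B cells, so their levels stand beside the B cell markers. The 14 markers summed to 4217, 4557 and 4249 FPKM in Ctrl and to 598, 662 and 656 FPKM in LIP, led by *Ighm* with a mean of 1518 and 276 FPKM. *Irf8* measured 62.0, 72.7 and 65.5 FPKM in Ctrl and 24.0, 26.2 and 22.6 FPKM in LIP. Per 1000 FPKM of B cell markers this is 14.7 to 16.0 FPKM of *Irf8* in Ctrl and 34.4 to 40.1 in LIP, so *Irf8* was lower in LIP by less than the B cell markers were. *Irf4* measured 2.18, 0.708 and 0.175 FPKM in the LIP libraries while the B cell sum was nearly level among them. The part of B cells in both differences was not tested.

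**Figure D4:**
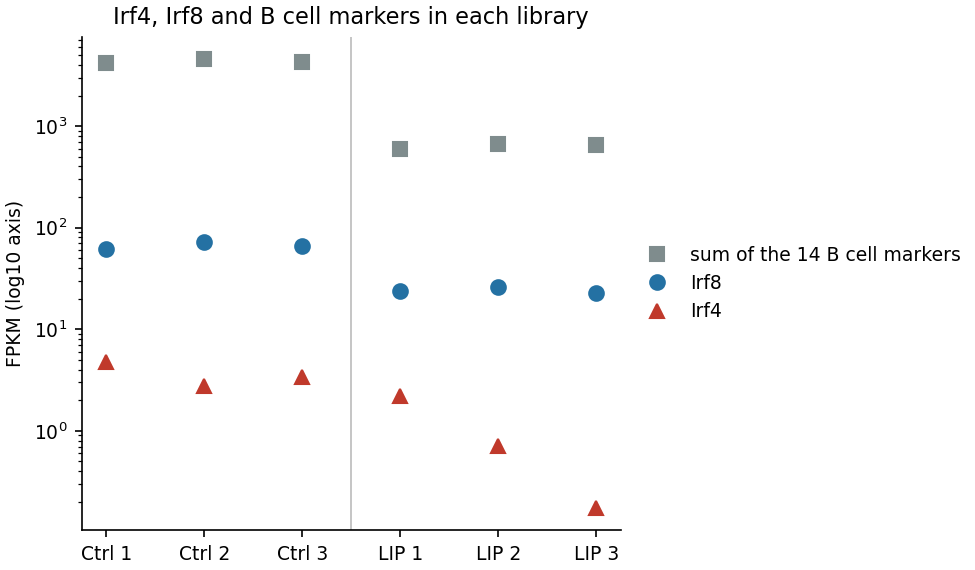
FPKM (log10 y axis) of the summed 14 B cell markers (squares), *Irf8* (circles) and *Irf4* (triangles) in each library. The B cell sum lies at 598 to 662 in all LIP libraries, where *Irf4* spans 0.175 to 2.18 FPKM.

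Some members share genomic bases with other genes, and whether counting used strand is not given in the sources used here, so reads of a gene and an antisense partner cannot be told apart. *Irf1* overlaps the antisense gene *Gm17334* by 3145 bases, which was itself higher in LIP (log2 fold change 1.07, adjusted p = 0.00114) with 1214 to 3179 reads a library, against 7852 to 17591 for *Irf1*. *Irf9* shares 123 bases with *Rnf31* on the same strand, which encodes a subunit of the linear ubiquitin ligase (log2 fold change 1.06, adjusted p = 0.000138). *Irf3* shares 1065 bases with *Bcl2l12* (-0.99, adjusted p = 0.0436) and *Irf5* shares 1045 bases with *Tnpo3* (-0.79, adjusted p = 0.0118), both antisense. *Irf7* shares 45 bases with the antisense *Phrf1* (-0.45, adjusted p = 0.125). The 2 genes inside *Irf2*, *Gm45479* and *Gm45481*, had at most 30 reads in a library.

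Across the pathway around the IRFs, 7 lists hold 88 distinct genes tested, of which 44 were called higher and 18 lower in LIP. With library totals these counts were 32 and 27, and with scaling on neutrophil markers 1 and 72. The median of all genes was -0.42 and -1.89 under these scalings, and the shares of all genes called were not counted there. The directions below are therefore those relative to the bulk of genes under TMM. Each list is given by its counts beside 26.5% higher and 27.2% lower among all genes, and by its median beside -0.09. The 20 neutrophil markers ran from 0.39 to 2.51 and the 14 B cell markers from -2.89 to -2.15. Several changes below lie within these ranges, among them those of *Myd88*, *Socs3*, *Spi1*, *Bcl6*, *Il1b* and *Spib*. The part of these cells in the list changes was not tested.

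Of the 24 tested of 28 sensors, adaptors and kinases upstream of the IRFs, 11 were higher, 4 lower and 9 not called (median 0.42). *Tlr4*, the receptor for lipopolysaccharide, rose from 13.8 ± 4.12 to 82.5 ± 2.45 CPM (log2 fold change 2.58, adjusted p = 4.54e-06), and *Myd88*, the adaptor through which *Irf5* and *Irf7* are engaged, from 192 ± 5.95 to 579 ± 15.2 CPM (1.59, adjusted p = 3.90e-07; SD, n = 3). *Slc15a4*, an endosomal transporter needed for Toll-like receptor signalling to *Irf5*, fell by 0.68 (adjusted p = 0.00689), and *Sting1*, the adaptor of cytosolic DNA sensing, fell by 0.59 on the log2 scale (adjusted p = 0.00385). *Tbk1*, the kinase of *Irf3*, was at 38.9 ± 13.8 CPM in Ctrl and 50.6 ± 4.93 CPM in LIP (0.38, adjusted p = 0.214). The members of this list moved in both directions, with 10 higher and 9 lower under library totals, 1 and 18 under neutrophil-marker scaling, and 11 and 7 under TMM without Ctrl replicate 2.

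All 12 interferon receptor, JAK, STAT and feedback genes were tested, and 8 were higher, 1 lower and 3 not called (median 0.51). With library totals 4 were higher and 1 lower, and with neutrophil-marker scaling 0 and 11. Over the fits that left out a library, 6 to 10 were higher. Under TMM both chains of the type I interferon receptor were higher. *Ifnar1* went from 64.9 ± 14.3 to 99.8 ± 3.16 CPM (0.62, adjusted p = 0.00829). In FPKM its groups overlapped (8.49 to 13.8 in Ctrl and 13.6 to 14.5 in LIP). *Ifnar2* went from 65.9 ± 2.61 to 129 ± 4.81 CPM (0.97, adjusted p = 4.09e-05), and *Ifngr1* was higher by 0.33 (adjusted p = 0.0142). *Stat2*, which acts with *Irf9* in ISGF3, measured 32.0 ± 7.59 CPM in Ctrl and 43.9 ± 2.48 CPM in LIP (0.46, adjusted p = 0.0633). The feedback inhibitors differed in sign, with *Socs3* (1.82, adjusted p = 8.54e-07) and *Usp18* (1.14, adjusted p = 0.000168) higher and *Socs1*, which restrains the interferon gamma signal, lower (-0.55, adjusted p = 0.0149).

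Among the 13 partners and lineage factors of *Irf4* and *Irf8*, 5 were higher, 5 lower and 3 not called (median 0.03). *Spi1*, which encodes PU.1, rose from 646 ± 53.5 to 1861 ± 67.7 CPM (1.53, adjusted p = 3.99e-07), and the repressor *Bcl6* rose by 1.56 (adjusted p = 5.92e-05). The B cell factors *Spib* (-2.53, adjusted p = 1.50e-06) and *Ebf1* (-2.59, adjusted p = 4.54e-06) fell, and *Ebf1* is also on the B cell marker list. *Irf8* and its partner *Spi1* thus moved in opposite directions under TMM.

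Of 6 tested of 8 co-repressors and turnover factors of IRF proteins, none was higher and 4 were lower (median -0.53) by edgeR. At an unadjusted p under 0.05, 1 was higher and 4 lower, and DESeq2 called 1 higher and 4 lower. *Otud1* (-1.18, adjusted p = 0.00186), *Irf2bpl* (-0.94, adjusted p = 0.00688) and the ubiquitin ligase subunit *Rbck1* (-0.34, adjusted p = 0.0253) were among those called.

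Of 14 tested of 17 target genes of *Irf1*, 6 were higher, 3 lower and 5 not called (median 0.14). With library totals 3 were higher and 5 lower, and with neutrophil-marker scaling 0 and 11. *Il15*, a cytokine that sustains NK cells, rose from 29.1 ± 2.17 to 97.1 ± 7.18 CPM (1.74, adjusted p = 2.30e-06), and the guanylate-binding protein gene *Gbp2* rose from 40.7 ± 7.77 to 128 ± 7.92 CPM (1.65, adjusted p = 1.08e-05). *Ciita*, the activator of MHC class II genes, fell by 2.22 (adjusted p = 3.15e-06), and the immunoproteasome subunit *Psmb10* fell by 0.53 on the log2 scale (adjusted p = 0.035). The change of *Ciita* lay within the range of the 14 B cell markers (-2.89 to -2.15), and the part of B cells in it was not tested.

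Of 12 tested of 15 target genes of *Irf3*, *Irf7* and ISGF3, 9 were higher and 3 not called (median 1.22). None was lower by edgeR with TMM or by DESeq2, or at an unadjusted p under 0.05 (0 lower), while library totals gave 7 higher and 1 lower and scaling on neutrophil markers 0 higher and 10 lower. *Oas2*, a sensor of double-stranded RNA, rose from 31.5 ± 8.13 to 107 ± 11.4 CPM (1.77, adjusted p = 2.70e-05), and the chemokine gene *Cxcl10* from 17.0 ± 3.59 to 47.2 ± 1.65 CPM (1.48, adjusted p = 9.71e-05). *Ifit2* (0.95, adjusted p = 0.0189) and *Rsad2* (0.36, adjusted p = 0.0189), both antiviral effectors, had the smallest changes among the called genes with a mean of at least 5 FPKM.

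Of 7 tested of 8 cytokine target genes of *Irf5*, 5 were higher, 1 lower and 1 not called (median 0.85), while *Irf5* itself was not called. *Il1b* rose from 3440.0 ± 276 to 12840.0 ± 714 CPM (1.9, adjusted p = 5.93e-08) and *Il23a* from 11.3 ± 3.84 to 28.3 ± 8.65 CPM (1.32, adjusted p = 0.00532). *Ccl4* rose by 0.48 (adjusted p = 0.0132), and *Il12a* fell by 0.87 on the log2 scale (adjusted p = 0.0321). No gene of this list was called lower in 4 of the 6 fits that left out a library (Ctrl replicate 2, Ctrl replicate 3, LIP replicate 1 or LIP replicate 3).

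**Figure D5:**
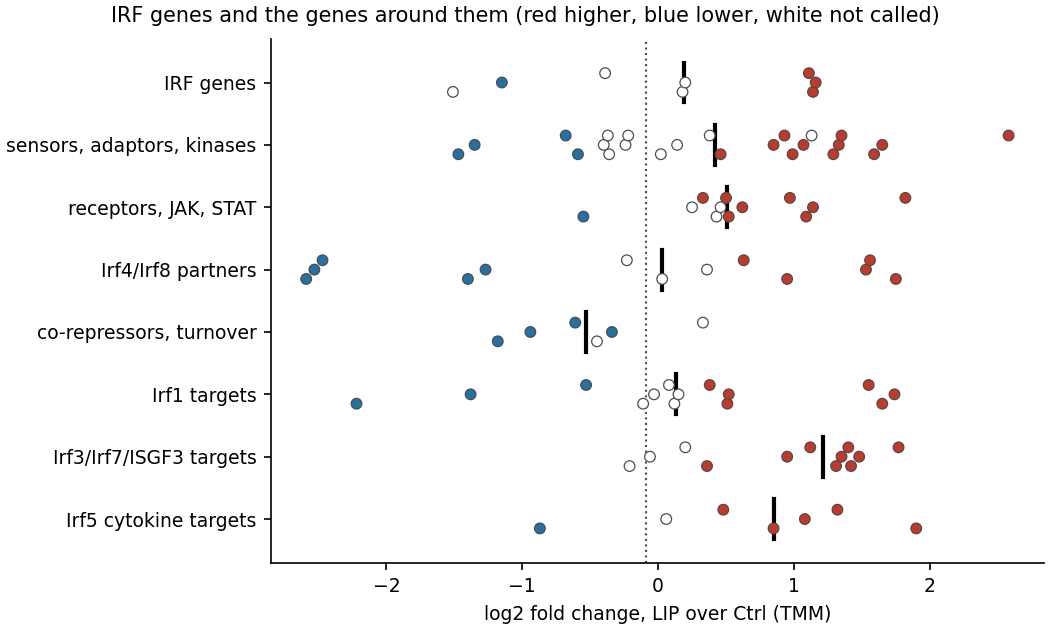
Log2 fold change of LIP over Ctrl under TMM (x axis) of the IRF genes and of the tested genes of 7 pathway lists (rows); points are genes, red where called higher, blue where called lower and white where not called, and black bars are list medians. The dotted line is the median of all genes (-0.09), and list medians run from -0.53 for co-repressors to 1.22 for *Irf3*, *Irf7* and ISGF3 targets; with neutrophil-marker scaling only 1 of these genes is called higher.

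Of 21 interferon genes, the products that *Irf3* and *Irf7* induce and the signals that *Irf9* and *Irf1* answer, 10 were found in the table and 1 passed the filter. *Ifnb1* had 0, 4 and 19 reads in Ctrl and 106, 19 and 49 reads in LIP, which overlap and were not tested. Of 5 interferon alpha genes, *Ifna2*, *Ifna4*, *Ifna5* and *Ifna9* had reads in 1 library each, up to 36, and *Ifna6* had 18 reads in a Ctrl library and 3 in a LIP library. *Ifng*, made by NK and T cells, had 1022, 1497 and 1272 reads in Ctrl and 611, 1006 and 845 in LIP (log2 fold change -0.36, adjusted p = 0.247), with overlapping groups.

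For each member the genes with the most similar profile over the 6 libraries were taken among 3380 genes of at least 10 FPKM outside the family, by Pearson r of log2(CPM + 1). With 6 libraries in 2 groups, r mostly follows the group difference, and it is given as a description. The genes most like *Irf1* were *Rnf115* (r = 0.998), *Rit1* (0.998) and *Mettl9* (0.997), those most like *Irf7* were *Gas2l1* (0.999), *Nrgn* (0.999) and the interferon-stimulated *Ifit3* (0.999), and those most like *Irf9* were *Bcl3*, *Selplg* and *Ugt1a7c* (0.998 to 0.999). *Irf8* was most like *Pim2* and the mitochondrial *mt-Atp8* and *mt-Nd1* (0.999 to 0.9998).

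The members without a call had lower r with their nearest genes. Since r mostly follows the group difference, this and the counts of genes below largely restate the calls. *Irf3* was most like *Ndufv2* (0.992), *Dcps* and *Macroh2a1*, *Irf5* most like *Abi3* (0.977), *Gm10182* and *Rida*, and *Irf2* most like *Inpp5d* (0.982), *Sh2b3* and *Mknk2*. *Irf4* was most like the immunoglobulin gene *Ighv10-3* (0.975), *Fbxw5* and *Dapk3*. The number of genes with r above 0.99 was 201 for *Irf9*, 137 for *Irf8*, 98 for *Irf1* and 33 for *Irf7*, and 0 or 1 for the other members.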

How the data were processed

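The 6 Smart-seq2 libraries of PB neutrophils were grouped by their titles, and a replicate is a pool of 5 mice. The deposited table holds raw counts of reads for each gene, not normalized, next to FPKM that the authors derived from them by length and depth. Per the labels, reads were trimmed with cutadapt 1.9, checked with FastQC and assigned to GRCm38, and the aligner, the counter and the use of strand are not given in the sources used here.

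Counts were fitted with edgeR 4.0.16 (R 4.3.3) by the quasi-likelihood test with TMM factors and no replicate block, after genes below a mean of 1 FPKM had been left out, and the Benjamini-Hochberg adjustment ran over the remaining 10440 genes. CPM are counts scaled by library size and TMM factor. SE was derived from the log2 fold change and its F statistic, and 95% intervals use the t quantile of the fit. Ratios of FPKM were compared by two-sided exact permutation tests. Promoter windows came from RefSeq. The scripts were tested on simulated data.

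Library totals were 52186555 to 57262379 reads, and the common biological coefficient of variation was 0.265, well above counting error for most genes, and no pair of replicates agreed within sampling noise. Reads carry no molecular identifiers, so they are not independent molecules.

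The members and lists were chosen with earlier results of these data known. Named are all members, from each list the called genes with the 2 largest and 2 smallest log2 fold changes at a mean FPKM of at least 5, besides *Stat2*, *Spi1*, *Tbk1*, *Myd88*, *Ifnar1* and *Ifnar2*, genes that overlap a member, the 3 genes most like each member, and the highest marker of each cell type list with any at 0. *Cd209a* and *Tcf4*, the 5 interferon alpha genes and *Ifnb1* and *Ifng* were named after their values were seen. Alternatives were library totals, median-of-ratios factors, scaling on neutrophil markers, DESeq2 1.42.0, limma 3.58.1 on log2(FPKM + 1) or log2(FPKM + 0.1), no filter, a mean FPKM of at least 5, removal of haemoglobin, immunoglobulin and erythroid genes, a replicate block and each library left out. Some genes that this rule names are not reported here.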

Additional observations from a re-analysis of the deposited data

How the results depend on the processing

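*Irf1*, *Irf7*, *Irf9* and *Irf8* passed an adjusted p of 0.05 under all 10 other settings, and *Irf8* was lower in each. Scaling on neutrophil markers, under which the median of all genes was -1.89, turned 5 members negative. These were *Irf1* at -0.66, *Irf7* at -0.64, *Irf9* at -0.69, *Irf5* at -1.60 and *Irf2* at -1.62 on the log2 scale. With that scaling 0 members were higher and 8 lower, and 1 pathway gene was higher and 72 were lower. *Irf2* and *Irf5* also changed sign, without a call, at -0.14 and -0.12 with library totals, -0.11 and -0.10 with limma at a pseudocount of 1, and -0.12 and -0.10 at 0.1. Lower members numbered 3 with library totals and with either limma fit, and 2 with a mean FPKM of at least 5, where *Irf3* passed (-0.56, adjusted p = 0.0108) and *Irf4* was not tested. Replicate numbers are shared by the groups through labels alone, and the deviations of same-numbered libraries did not correlate (-0.0083, 0.0444 and 0.021). With the replicate block, 3 members were higher and 3 lower, *Irf3* (adjusted p = 0.0458) and *Irf4* (-2.05, adjusted p = 0.0168) being added.

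Over the 6 fits without a library, 3 members were higher in each, 1 to 2 were lower (2 without LIP replicate 1, which added *Irf4*), and 40 to 46 pathway genes were higher and 15 to 19 lower. The differences in log2 ratio lay between 0.82 and 1.06 for *Irf1* to *Irf2*, 1.38 and 1.73 for *Irf7* to *Irf3*, and -1.43 and -1.28 for *Irf8* to *Irf5*. With a spacer of 1 base in the response element (GAAANGAA), 0 members held it. *Irf3* lay between -0.50 and -0.22 and *Irf4* between -2.72 and -1.01 on the log2 scale. Depth limits the interferon genes other than *Ifng*, with at most 106 reads in a library. The causes of these changes were not tested.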
